A study of Mus musculus with 4 samples.

Results

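The cells described here are the colonic TCRγδ intraepithelial lymphocytes (IELs) of the TCRγδ Tcf7WT library, divided by whether a Thy1 transcript was captured. Cells with at least 1 UMI (unique molecular identifier, standing for 1 captured transcript) of Trdc, the constant region of the TCRδ chain, were kept, which gave 1795 of the 1888 cells of that library and of the 16787 cells of the series. Of these, 637 had at least 1 Thy1 UMI and are called Thy1-positive, and 1158 had 0 Thy1 UMIs and are called Thy1-negative. The cells were chosen by their Thy1 and Trdc UMI counts, so the levels of these genes are no finding, and all other genes of the same cells are given as a description.

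The IELs were taken from mouse colon, and live cells positive for CD3 and CD8α were collected by their TCRβ or TCRγδ. Each sort and genotype gave 1 library of the 10x Chromium 3′ version 2 kit, 4 libraries in all. All 4 libraries carry the same strain label, E8IcreTcf7fl/fl, that is floxed Tcf7 alleles together with a Cre under the E8I enhancer, which acts in CD8α-expressing cells. The genotype label alone separates Tcf7KO from Tcf7WT, and the labels used here give neither the age nor the number of the mice. Both sets of cells come from the same TCRγδ Tcf7WT library, so they share mice, sort and sequencing, and no difference between them has a replicate check or a test. The TCRγδ Tcf7KO and TCRβ Tcf7WT libraries were divided in the same way for comparison.

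Thy1 (CD90) is a small glycoprotein tethered to the surface of most mouse T cells. Intraepithelial lymphocytes are unusual among T cells in that many lack it, and presence or absence of Thy1 has long been used to divide γδ IELs of the mouse gut. γδ IELs sit between epithelial cells, carry receptors shared with natural killer (NK) cells and hold large stores of granzymes and chemokines.

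The Thy1-positive cells held 2253686 UMIs in all with a median of 3378 per cell, and the Thy1-negative cells held 3709584 with a median of 3156.5. The median number of genes was 1762 in Thy1-positive and 1671.5 in Thy1-negative cells, and the median Trdc count was 6 and 5 UMIs. The 2 sets were thus of similar depth. Levels are in CPM, for which the UMIs of a gene were summed over the cells of a set and scaled to a common total, and ratios are log2 ratios of CPM, Thy1-positive over Thy1-negative, with exact 95% intervals that cover counting error only. For shares, every cell was thinned at random to 1442 UMIs and shallower cells were left out, which kept 599 Thy1-positive and 1017 Thy1-negative cells.

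Thy1, on chr9:44043384-44048579 of GRCm38 (plus strand, protein-coding), had 1283 UMIs in the Thy1-positive cells, or 569 CPM. Of these cells, 313 had exactly 1 UMI, 168 had 2 and 156 had 3 or more, up to 10. Most of the division therefore rests on 1 or 2 UMIs. The Thy1-positive share was 35.5% (95% exact interval 33.3 to 37.8%) of the Trdc-positive cells, and 23.0% (21.0 to 25.1%) after thinning. Of the 599 Thy1-positive cells, 372 still had a Thy1 UMI after thinning, so a cell without a Thy1 UMI cannot be taken as a cell without Thy1 transcripts. Trdc, on chromosome 14, had 1956 CPM in Thy1-positive and 2061 CPM in Thy1-negative cells. None of the 18 cells of the library with at least 1% of UMIs from epithelial marker genes had a Thy1 UMI, a count that, at a limit of 3 counts of 18, allows a share of up to 16.7%. Their median depth was 2558.5 UMIs.

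The Thy1-positive cells had more RNA of MHC class II genes, of the membrane proteins Ms4a4b and Ms4a6b, of Klrk1, Lgals1, Scin, Gzmk and Ctla4, and of the T cell receptor adaptor Lat. The Thy1-negative cells had more RNA of the Ly49 receptors Klra5 and Klra7, of Klrb1a and of Tyrobp, the signalling adaptor of activating NK receptors. Of 10372 genes with at least 20 UMIs over both sets, 463 (4.46%) were at least 1.5-fold higher and 616 (5.94%) at least 1.5-fold lower in Thy1-positive cells, 1.5-fold being a size and not a test. The median log2 ratio over all these genes was -0.02. After thinning, 509 of the 8836 genes then counted were at least 1.5-fold higher and 706 at least 1.5-fold lower. List counts given below before thinning are to be read beside the 4.46% and 5.94% of all genes. List counts given below for thinned cells keep every member measured before thinning. The 8836 genes are those counted after it, so the thinned list counts have no like share of all genes beside them.

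**Figure D1:**
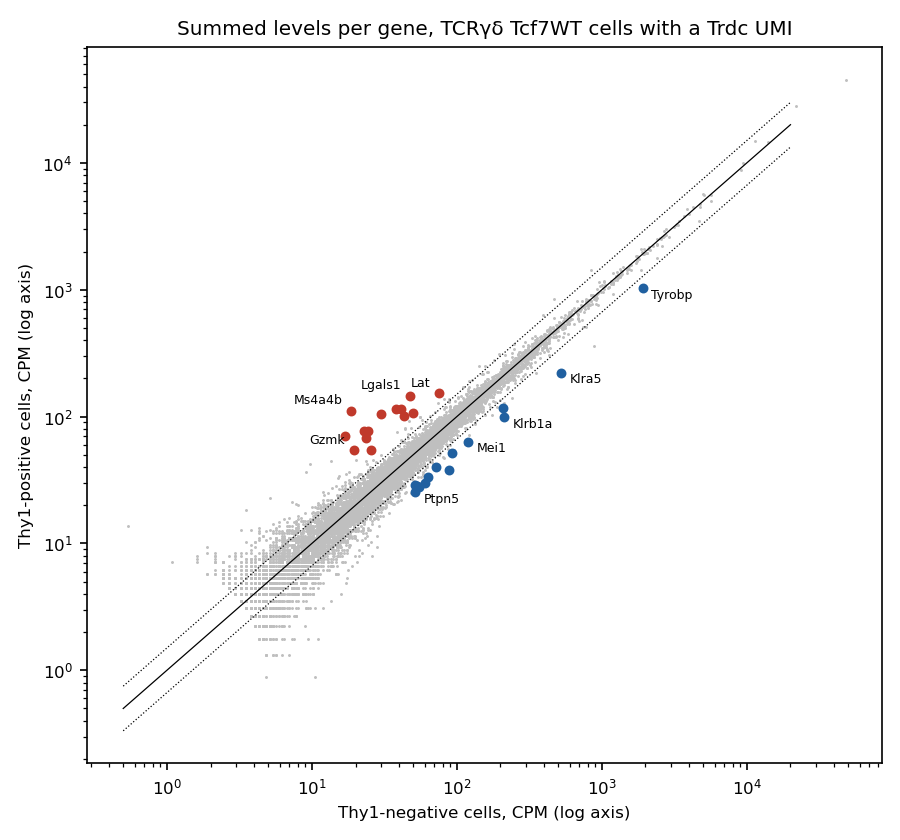
Summed level of each gene in Thy1-positive cells (y axis) against Thy1-negative cells (x axis) of the TCRγδ Tcf7WT library, in CPM on log axes, with Thy1 and Trdc left out; the solid line marks equal levels and the dotted lines 1.5-fold. The 14 highest named genes (red) lie between 54.1 and 153 CPM in Thy1-positive cells, while Tyrobp and Klra5 stand out among the 14 lowest (blue) by their level, and only some points carry a name.

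The MHC class II genes encode the proteins that display peptides to CD4 T cells and are usually associated with antigen-presenting cells. Their promoters share an X box and a Y box, bound by the factors that recruit the transactivator CIITA. Because most of these genes were higher together, promoters of the family were read from the RefSeq table for GRCm38.p6, which covers 250 bases before to 50 bases after each gene's start and holds 8 of the 11 genes of the list. Stretches of 4 of them are shown, 5′ to 3′ on the strand of the gene, with the Y box core TGATTGG and the X box stretch AACNGATG in capitals. They lie at chr17:34305758-34305832 (plus strand) for H2-Eb1, chr17:34287847-34287893 (minus strand) for H2-Aa, chr17:34325525-34325599 (plus strand) for H2-Eb2 and chr17:34153079-34153154 (plus strand) for H2-DMb1.
H2-Eb1: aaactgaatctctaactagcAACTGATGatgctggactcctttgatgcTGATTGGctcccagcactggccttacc
H2-Aa: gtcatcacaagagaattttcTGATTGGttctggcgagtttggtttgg
H2-Eb2: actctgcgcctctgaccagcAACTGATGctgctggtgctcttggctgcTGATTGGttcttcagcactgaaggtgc
H2-DMb1: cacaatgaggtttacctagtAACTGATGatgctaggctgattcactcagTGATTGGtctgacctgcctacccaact
The Y box core begins 61 bases before the annotated start in H2-Eb1, 50 in H2-Aa, 102 in H2-Eb2 and 63 in H2-DMb1. On either strand, TGATTGG occurs in 7 of the 8 class II genes held there, against 7.82% of all 32851 promoters of the table. AACNGATG occurs in 4 of the 8, against 2.32% of all promoters. The class II counts are of genes and the percentages of promoters. These 8 are not the 8 genes measured below. The matched H2-DMb2, H2-Oa and H2-Ob had too few UMIs to be measured, and H2-Ab1 and Cd74 have no promoter in the table. These matches describe the sequences only.

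Of the 8 measured class II genes, 6 were at least 1.5-fold higher in Thy1-positive cells and 0 were lower, with a median log2 ratio of 1.32. H2-Aa (chr17:34282744-34287823), the α chain of I-A, had 76.8 CPM in Thy1-positive and 22.9 CPM in Thy1-negative cells (log2 ratio 1.74, 1.36 to 2.14). H2-Ab1, its β chain, had 76.8 and 24.5 CPM (1.65, 1.27 to 2.03). H2-Eb1, the β chain of I-E, had 114 CPM in Thy1-positive and 41.5 CPM in Thy1-negative cells (1.46, 1.16 to 1.76). Cd74, the invariant chain that escorts class II molecules, followed the chains with 105 and 30.2 CPM (1.79, 1.46 to 2.13). The peptide-loading genes H2-DMb1 (1.19, 0.42 to 1.97) and H2-DMa (0.92, 0.28 to 1.56) were higher too, at 16.0 and 20.9 CPM in Thy1-positive cells and 7.01 and 11.1 CPM in Thy1-negative cells. The remaining 2 genes, looked up after their values were seen, did not share the difference. H2-Eb2 had 57.2 CPM in Thy1-positive and 49.6 CPM in Thy1-negative cells (0.21, -0.13 to 0.54), although its printed promoter holds both boxes. Ciita had 12 and 20 UMIs, or 5.32 and 5.39 CPM (-0.02, -1.18 to 1.08).

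After thinning, 40.1% (36.1 to 44.1%) of Thy1-positive cells had a UMI of any class II gene, against 18.0% (15.7 to 20.5%) of Thy1-negative cells and 1 of 13 thinned epithelial marker cells. Class II RNA was thus present in part of both sets. These shares count a UMI of any gene of the list, H2-Eb2 included, and single genes were seen in fewer cells. Among thinned cells, Cd74 had a UMI in 11.7% of Thy1-positive and 2.75% of Thy1-negative cells. The shares were 8.51% and 3.24% for H2-Aa, 9.52% and 3.24% for H2-Ab1, and 15.7% and 4.92% for H2-Eb1. Markers of cell types known for class II were looked up beside the class II genes. Of the B and plasma cell markers, Cd79a, Ms4a1, Jchain and Igkc are not listed in this library. Cd79b had 44.4 CPM in Thy1-positive and 35.6 CPM in Thy1-negative cells (0.32, -0.07 to 0.70, and 0.63 after thinning), and Ighm had 142 and 176 CPM (-0.32, -0.51 to -0.12). Of the 8 myeloid markers, 2 were listed, with 10 UMIs (4.44 CPM) in Thy1-positive and 21 UMIs (5.66 CPM) in Thy1-negative cells. The 13 epithelial markers summed to 227 CPM in Thy1-positive and 302 CPM in Thy1-negative cells. The part of such cells in the class II difference was not tested.

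Ms4a4b (chr19:11443553-11467055, plus strand), a four-transmembrane protein of T cells related to CD20, had the highest ratio of the 28 genes named by size, all with at least 100 UMIs. It had 251 UMIs and 111 CPM in Thy1-positive cells, against 69 UMIs and 18.6 CPM in Thy1-negative cells, a log2 ratio of 2.58 (2.19 to 2.99). No single cell held more than 7 of these UMIs, and after thinning 14.2% (11.5 to 17.2%) of Thy1-positive and 2.65% (1.76 to 3.84%) of Thy1-negative cells had one. The other measured genes of the family, Ms4a6b (106 and 49.9 CPM, 1.09) and Ms4a6c (14.2 and 7.82 CPM, 0.86), were also higher, so all 3 measured Ms4a genes were above 1.5-fold.

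Genes of the cell surface, the granules and the cytoskeleton followed. Lgals1, which encodes the secreted lectin galectin-1, had 146 CPM in Thy1-positive and 47.7 CPM in Thy1-negative cells (1.61, 1.35 to 1.89). Scin, an actin-severing protein, had 114 and 38.0 CPM (1.59, 1.29 to 1.90), and of 10 measured actin-severing and capping genes 1 was past 1.5-fold before and 2 after thinning. Gzmk, granzyme K, had 54.1 CPM in Thy1-positive and 19.4 CPM in Thy1-negative cells (1.48, 1.05 to 1.92). Other members of the S100, galectin and annexin list past 1.5-fold were Emp3 (149 and 78.2 CPM, 0.93) and S100a6 (80.3 and 44.2 CPM, 0.86), 3 of 13 with 0 lower. Rgs10, which shuts off G protein signalling, had 67.9 and 23.5 CPM (1.53, 1.14 to 1.93).

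Receptor signalling genes differed at a few points and not along the pathway. Lat, the membrane adaptor that links the T cell receptor to its downstream enzymes, had 153 CPM in Thy1-positive and 74.9 CPM in Thy1-negative cells (1.03, 0.80 to 1.26), and a UMI in 20.4% of Thy1-positive and 10.4% of Thy1-negative thinned cells. Themis, a T cell-specific signalling protein (1.15, 0.64 to 1.67), and the adaptor Sh2d1a (1.33, 0.45 to 2.25) were also higher, among 4 of 25 measured genes of CD3 and proximal signalling that were at least 1.5-fold higher and 0 that were lower. After thinning, 4 were higher and 1 lower. The list's median ratio was 0.07. Of 12 costimulatory genes, Icos (1.21, 0.38 to 2.07) and Cd6 (1.12, 0.60 to 1.65) passed 1.5-fold. After thinning, Icos stood at 0.47 and Cd6 at 1.11, and 3 genes of that list were higher and 1 lower. Ctla4, an inhibitory receptor, had 101 and 43.1 CPM (1.22, 0.93 to 1.52). With Havcr2 (0.85) and Cish (0.60), it was 1 of 3 higher among 14 inhibitory genes, and 0 of these were lower. After thinning, 2 were higher and 1 lower, with Cish at 0.57.

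NK receptor genes split in both directions. Of 22 measured, 7 were at least 1.5-fold lower and 3 higher in Thy1-positive cells, with a median log2 ratio of -0.29, and 9 were lower and 3 higher after thinning. Klra5 (chr6:129898996-129917650, minus strand), which encodes the receptor Ly49E, had 501 UMIs and 222 CPM in Thy1-positive cells, against 1946 UMIs and 525 CPM in Thy1-negative cells (-1.24, -1.38 to -1.10). After thinning it had a UMI in 13.9% (11.2 to 16.9%) of Thy1-positive and 33.3% (30.4 to 36.3%) of Thy1-negative cells. Klrb1a, of the NKR-P1 family, had 98.9 and 212 CPM (-1.10, -1.32 to -0.88), and Klra7, another Ly49 receptor, had 30.2 and 59.8 CPM (-0.99, -1.40 to -0.59). Ly49 transcripts are near-identical in places, and how the authors' counting shared reads among these genes is not given in the sources used here.

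Klrk1 (chr6:129610323-129623864, minus strand), the activating receptor NKG2D, lies in the same gene complex on chromosome 6 and went the other way. It had 158 UMIs and 70.1 CPM in Thy1-positive cells and 63 UMIs and 17.0 CPM in Thy1-negative cells (2.05, 1.62 to 2.49). Without the cells that held 3 or more UMIs of the TCRα and TCRβ constant genes its ratio was -0.39, a setting that drops 80.4% of Thy1-positive and 80.1% of Thy1-negative cells.

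Signalling adaptors of activating NK receptors differed from each other, and which of the receptors named above pair with them was not examined. Tyrobp (chr7:30413760-30417585, plus strand), or DAP12, had 2321 UMIs and 1030 CPM in Thy1-positive cells, against 7109 UMIs and 1916 CPM in Thy1-negative cells (-0.90, -0.96 to -0.83). Among thinned cells, 46.7% (42.7 to 50.8%) of Thy1-positive and 77.2% (74.5 to 79.7%) of Thy1-negative cells had a Tyrobp UMI, and 0 of the 13 epithelial marker cells did, which, at a limit of 3 counts of 13, allows a share of up to 23.1%. That limit is above the shares of Ms4a4b and Klra5 in Thy1-positive cells, so these 13 cells set no useful background for the rarer genes. The other adaptors were looked up after their values were seen. Fcer1g, the Fc receptor γ chain, had 1787 CPM in Thy1-positive and 2417 CPM in Thy1-negative cells (-0.44, -0.49 to -0.38), whereas Hcst, the DAP10 adaptor that NKG2D uses, had 1161 and 956 CPM (0.28, 0.21 to 0.35).

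The other lower genes were of mixed roles. Trf, transferrin, had 37.7 CPM in Thy1-positive and 87.6 CPM in Thy1-negative cells (-1.22, -1.58 to -0.87), and the phosphatase Ptpn5 had 25.3 and 51.8 CPM (-1.03, -1.49 to -0.60). Sec14l1, Tgfb3, Mei1, P4ha2, Stk32c, Cela1, Rgs16 and Arrdc4 had ratios between -0.98 and -0.83. Kit, a growth factor receptor best known on mast cells and progenitors, had 128 and 211 CPM (-0.73, -0.93 to -0.53). The mast cell proteases Mcpt1 and Mcpt2 are not listed in this library.

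**Figure D2:**
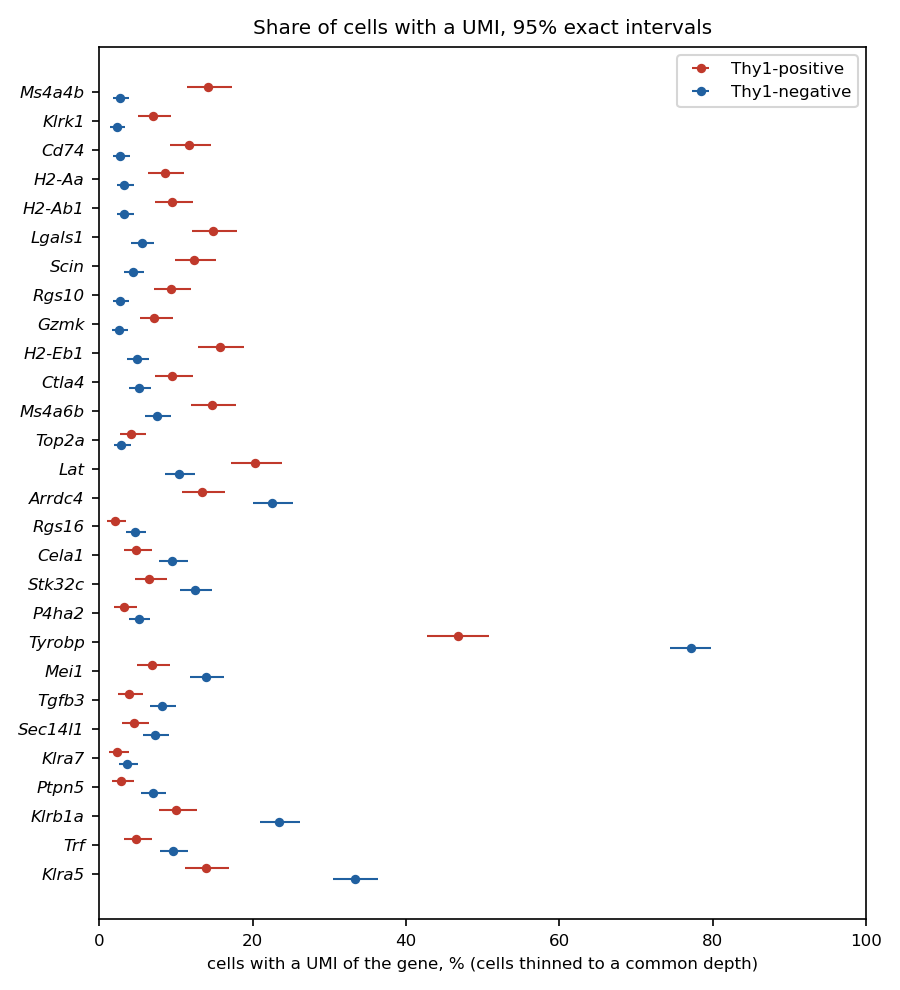
Share of cells with at least 1 UMI of each of the 28 named genes (x axis, %) among 599 Thy1-positive (red, upper point) and 1017 Thy1-negative cells (blue, lower point), each thinned to 1442 UMIs; bars are 95% exact intervals. Tyrobp shows the widest gap in percentage points, 46.7% against 77.2%, and of the higher genes Lat is seen in the most Thy1-positive cells, 20.4%.

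The CPM ratios of Gzma and Cd8a stayed below 1.5-fold, though a larger share of Thy1-positive cells had a Gzma UMI. Some other granzyme, chemokine and homing genes differed more by ratio. Gzma, granzyme A, had 14786 CPM in Thy1-positive and 11424 CPM in Thy1-negative cells (0.37, 0.35 to 0.39), and a UMI in 66.4% of Thy1-positive and 53.3% of Thy1-negative thinned cells. Of 16 granzyme and granule genes, 2 were at least 1.5-fold higher and 1 lower, and 1 was higher and 1 lower after thinning. The lower one was Gzmf, with 0 UMIs in Thy1-positive and 67 UMIs in Thy1-negative cells, 62 of them in a single cell. Cd8a, on which the cells were sorted, had 1430 and 1599 CPM (-0.16, -0.22 to -0.10). Cd8b1, whose product pairs with CD8α in conventional CD8 T cells, had 19 UMIs in Thy1-positive and 14 UMIs in Thy1-negative cells (1.16, 0.09 to 2.27), in 13 and 8 cells. Of 11 cytokines and chemokines, 4 were at least 1.5-fold higher and 1 lower in Thy1-positive cells, and 1 was higher and 1 lower after thinning. Ccl4 had 843 CPM in Thy1-positive and 470 CPM in Thy1-negative cells (0.84, 0.75 to 0.94, and 0.85 after thinning), and Ifng had 171 and 111 CPM (0.63, 0.42 to 0.83, and 0.40 after thinning). Among residency and homing genes, the integrin chain Itgb7 (0.59) passed 1.5-fold, with the gut-homing receptor Ccr9 (0.53) and Cxcr6 (0.52) below it. None of the 8 Gimap genes was past 1.5-fold in either direction, before or after thinning. Of the 27 measured interferon response genes 0 were past it before thinning and 5 after, named after their values were seen. Bst2 (0.72), Zbp1 (0.64) and Gbp2 (0.60) were higher and Ifit1 (-0.61) and Rsad2 (-1.07) lower. Before thinning, Bst2, Zbp1 and Gbp2 stood at 0.34, 0.34 and 0.42. Ifit1 then had 17 and 21 UMIs (0.41, -0.60 to 1.41) and Rsad2 21 and 39 UMIs (-0.17, -1.01 to 0.63).

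Genes of naive and memory T cells were divided. Il7r, the IL-7 receptor α chain, had 36.4 CPM in Thy1-positive and 9.17 CPM in Thy1-negative cells (1.99, 1.40 to 2.61), and the quiescence factor Klf3 had 22.6 and 5.12 CPM (2.14, 1.36 to 2.99). Tcf7, the gene targeted in this study, which encodes TCF-1, went the other way with 33.3 CPM in Thy1-positive and 53.6 CPM in Thy1-negative cells (-0.69, -1.09 to -0.30), and so did Id3 with 71.0 and 122 CPM (-0.78, -1.05 to -0.52). Of the 12 measured genes of this list, 2 were higher and 3 lower. Among 28 transcription factors, 3 were higher and 4 lower, and 4 were higher and 5 lower after thinning. The higher ones were Irf4 (1.47, 0.53 to 2.46), Zeb2 (1.09, 0.50 to 1.69) and Rora (1.0, 0.44 to 1.56), at 12.0, 25.3 and 27.5 CPM in Thy1-positive cells, and the lower ones included Sox4, with 4 UMIs in Thy1-positive and 27 UMIs in Thy1-negative cells (-2.04, -4.01 to -0.51).

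Cell cycle genes were higher in Thy1-positive cells, by a margin that changed with depth. Of 20 measured, 11 were at least 1.5-fold higher and 0 lower (median 0.63). Top2a had 54.6 and 25.6 CPM (1.09, 0.69 to 1.49), and Birc5 had 31 UMIs in Thy1-positive and 2 UMIs in Thy1-negative cells (4.67, 2.70 to 7.78). Thinning gave 9 higher and 2 lower with a median of 0.38, and Mki67, at 1.02 before thinning, stood at -0.24 after it. Cells with 3 or more cell cycle UMIs made up 19.5% of Thy1-positive and 14.4% of Thy1-negative cells before thinning, and without them Top2a was below 1.5-fold. Top2a and Mki67 are among the genes that mark these cells, so leaving the cells out removes UMIs of both by construction.

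Levels of named genes were also taken by the number of Thy1 UMIs per cell. These genes were named by their ratio between cells with and without a Thy1 UMI. The step up or down from 0 UMIs therefore follows in part from that choice. Ms4a4b had 18.6 CPM in cells with 0 Thy1 UMIs, 103 CPM at 1 UMI, 114 CPM at 2 UMIs and 122 CPM at 3 or more. Scin had 38.0, 95.8, 119 and 139 CPM in the same order. Summed over the class II list, levels were 195, 421, 428 and 604 CPM. For these the widest step was between 0 and 1 Thy1 UMI, the cells just outside and just inside the threshold. Klrk1, with 17.0, 36.9, 95.3 and 97.9 CPM, and Cd74, with 30.2, 84.8, 76.9 and 161 CPM, had their widest step further up, and so did Themis with 15.4, 16.0, 50.2 and 47.4 CPM. Other named genes did not rise in order past 1 UMI. From 1 UMI up, H2-Ab1 had 81.8, 65.2 and 79.5 CPM, Lat 130, 179 and 165 CPM and Ms4a6b 104, 117 and 101 CPM. Klra5 had 525 CPM at 0 Thy1 UMIs, 276 CPM at 1, 186 CPM at 2 and 173 CPM at 3 or more, and Tyrobp had 1916, 1281, 810 and 847 CPM. The intervals of the classes with 2 and with 3 or more Thy1 UMIs overlapped for Ms4a4b, Scin, Klra5 and Tyrobp, and did not overlap for the class II sum, at 377 to 484 CPM and 546 to 667 CPM. Median depth was 3156.5, 3117, 3275 and 3877.5 UMIs from 0 to 3 or more Thy1 UMIs, and the part of depth in the highest class was not tested.

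**Figure D3:**
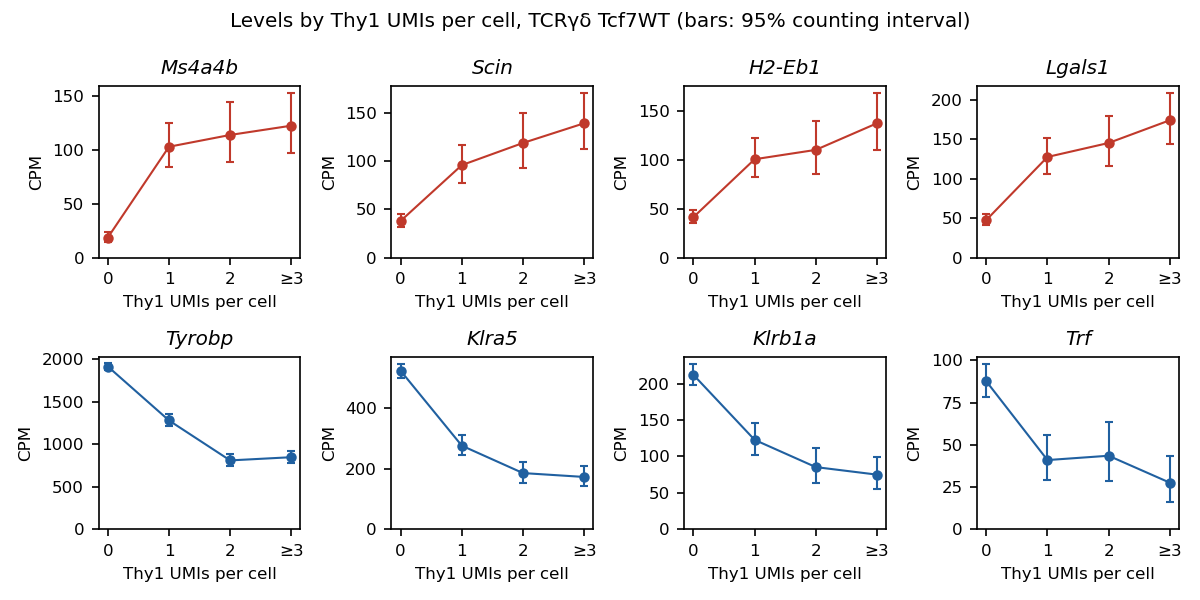
Level of 8 named genes (y axis, CPM) in cells with 0, 1, 2 and 3 or more Thy1 UMIs (x axis; 1158, 313, 168 and 156 cells); points are summed levels and bars 95% counting intervals. Ms4a4b, Scin, H2-Eb1 and Lgals1 (red) step up, and Tyrobp, Klra5, Klrb1a and Trf (blue) step down, mainly between 0 and 1 UMI. The genes were named by their ratio between cells with and without a Thy1 UMI, so this step follows in part from that choice.

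The named genes were seen in some cells of each set and not in others. Of the 14 named genes that were higher, 3 or more had a UMI in 24.2% of Thy1-positive and 6.10% of Thy1-negative thinned cells, and none had one in 31.2% of Thy1-positive and 64.0% of Thy1-negative cells. Of the 14 lower genes, 3 or more had a UMI in 18.7% of Thy1-positive and 45.3% of Thy1-negative cells. Both groups of genes were named by their ratios in these same cells, before and after thinning. The gaps between the sets therefore follow from that choice, and only the spread within each set is described here. The 14 higher genes held few UMIs, 1212 in the 599 Thy1-positive and 735 in the 1017 Thy1-negative thinned cells. The part of sparse counting in that spread was not tested.

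Within the Thy1-positive cells, those with one of the higher genes had fewer of the lower ones. Of 85 thinned Thy1-positive cells with an Ms4a4b UMI, 11.8% had a Tyrobp UMI and 1.18% a Klra5 UMI, against 52.5% and 16.0% of the 514 Thy1-positive cells without an Ms4a4b UMI. Of 74 Thy1-positive cells with a Scin UMI, 17.6% had a Tyrobp UMI, against 50.9% of the cells without. For Klrk1 the shares lay close, 38.1% of 42 cells with and 47.4% of those without. The higher genes did not all travel together either. Of the Ms4a4b cells, 55.3% had a Gzma UMI, against 68.3% of the Thy1-positive cells without Ms4a4b, while 94.6% of the Scin cells and all 43 Gzmk cells had one. Lat was found in 44.7% of the Ms4a4b cells, against 16.3% of the cells without, and Tcf7 in 11.8%, against 3.11%. Most of these patterns were also seen within the Thy1-negative cells. Tyrobp was seen in 25.9% of the 27 thinned Thy1-negative cells with an Ms4a4b UMI and in 78.6% of those without. For Scin the shares were 22.2% of 45 cells and 79.7%. Gzma was seen in all 26 Gzmk cells and 97.8% of the Scin cells, and Lat in 40.7% of the Ms4a4b cells against 9.60%. Gzma lay the other way there, in 59.3% of the Ms4a4b cells against 53.1%. All these cells come from 1 library, and the shares carry no test.

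**Figure D4:**
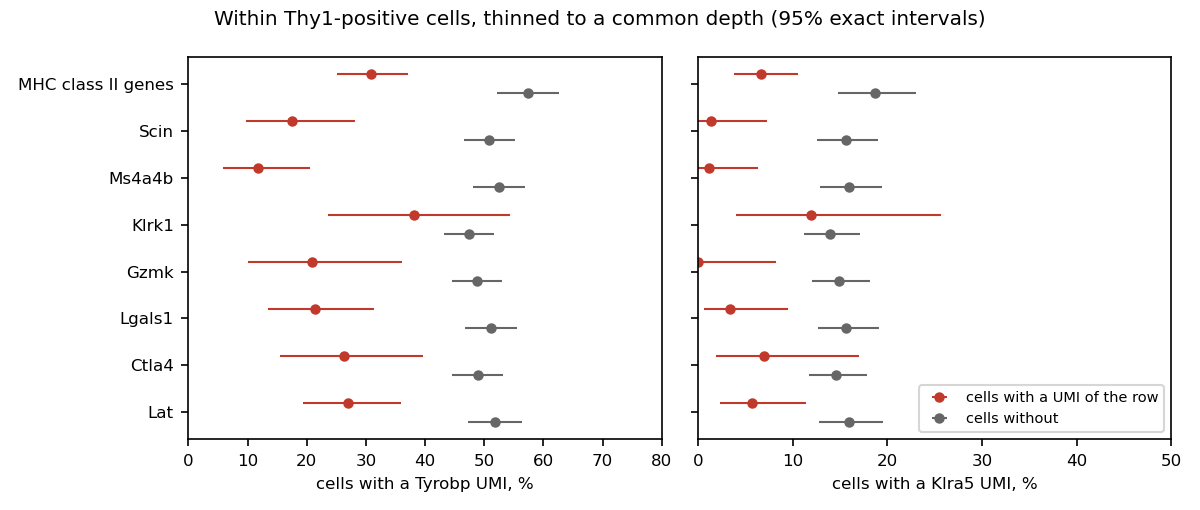
Share of thinned Thy1-positive cells with a Tyrobp UMI (left) or a Klra5 UMI (right), in % on the x axis, among cells with (red) and without (grey) a UMI of the gene or gene group named on each row; bars are 95% exact intervals. Ms4a4b shows the lowest Tyrobp share, 11.8% against 52.5%, and Klrk1 the smallest gap on the left. Thy1-negative cells, where Ms4a4b and Scin cells also had the lower Tyrobp share, are not drawn.

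None of the 4 measured γ chain constant genes of the γδ receptor was past 1.5-fold. Of 15 measured variable segments, 1 was at least 1.5-fold higher and 4 lower, and 3 were higher and 4 lower after thinning. Trdv1 had 6 UMIs in Thy1-positive and 29 UMIs in Thy1-negative cells (-1.55, -3.11 to -0.26), Tcrg-V7 had 29 and 94 UMIs (-0.98, -1.63 to -0.36) and Trdv2-1 had 17 and 14 UMIs (1.0, -0.11 to 2.13). By variable segment, the Thy1-positive share was 45.9% (37.3 to 54.7%) of 135 cells with a Trdv2-2 UMI and 40.6% (33.1 to 48.4%) of 170 cells with a Trdv5 UMI. It was 38.9% (35.8 to 42.1%) of 945 cells with a Trgv2 UMI, 37.2% (32.7 to 41.8%) of 452 cells with a Tcrg-V1 UMI and 24.8% (17.0 to 34.0%) of 109 cells with a Tcrg-V7 UMI. Segments with few cells gave the extremes, 18.5% (6.30 to 38.1%) of 27 cells for Trdv1, 4 of 20 cells (5.73 to 43.7%) for Trdv4 and 54.8% (36.0 to 72.7%) of 31 cells for Trdv2-1. The interval of Tcrg-V7 lies below those of Trdv2-2 and Trgv2. After thinning the shares were 35.8% (23.1 to 50.2%) for Trdv2-2, 24.7% (20.9 to 28.8%) for Trgv2 and 12.5% (4.73 to 25.2%) for Tcrg-V7, and the intervals overlapped. Median depths of the cells with Trdv2-2, Trdv5, Trgv2, Tcrg-V1 and Tcrg-V7 were 3510.5 to 3956 UMIs. UMIs of the αβ receptor constant genes Trac, Trbc1 and Trbc2 were present in both sets, at 2085 CPM in Thy1-positive and 2477 CPM in Thy1-negative cells, against 3736 and 3812 CPM in the Thy1-positive and Thy1-negative cells of the TCRβ Tcf7WT library. Trbc1 had the largest difference of the 3, with 513 and 783 CPM (-0.61, -0.71 to -0.51). In cells with fewer than 3 of these UMIs, 13 of the 14 named higher genes were still higher and all 14 lower genes still lower. Past 1.5-fold were 12 of the higher and 10 of the lower genes. These cells are part of those in which the genes were named, so the kept directions follow in part from that choice.

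The same division in 2 libraries that the choice of cells did not use gave values for the same genes. In the TCRγδ Tcf7KO library, 137 of 1477 Trdc-positive cells, or 9.28% (7.84 to 10.9%), had a Thy1 UMI, and 4.02% (3.07 to 5.15%) after thinning. Of 10539 genes, 787 (7.47%) were at least 1.5-fold higher and 1378 (13.1%) lower in its Thy1-positive cells. Over the 7041 genes compared with TCRγδ Tcf7WT, 55.5% had ratios of the same sign, with a Spearman correlation of 0.15. Of the 14 genes named as higher, 10 had at least 20 UMIs there, all 10 were higher and 9 of them were past 1.5-fold. Ms4a4b had 45 UMIs in 137 Thy1-positive and 27 UMIs in 1340 Thy1-negative cells, or 67.7 and 4.40 CPM (3.94). Lgals1 had 51.2 and 2.44 CPM (4.39) and H2-Eb1 had 22.6 and 1.47 CPM (3.94), from 15 and 9 UMIs. Cd74, H2-Aa, Scin and Gzmk had fewer than 20 UMIs in all.

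The lower genes held less well in that library. Of the 14, 11 were lower in its Thy1-positive cells, 2 of them past 1.5-fold, with a median ratio of -0.42. Tyrobp had 1749 CPM in Thy1-positive and 2439 CPM in Thy1-negative cells (-0.48) and Klra5 had 592 and 797 CPM (-0.43), while Klra7, Rgs16 and Tgfb3 were higher. Epithelial marker genes summed to 203 CPM in Thy1-positive and 1085 CPM in Thy1-negative cells of that library, and their part in these ratios was not tested.

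In the TCRβ Tcf7WT library, 7235 cells had a Trbc1 or Trbc2 UMI and no Trdc UMI, and 3336 of them, or 46.1% (45.0 to 47.3%), had a Thy1 UMI. Of 11967 genes, 408 (3.41%) were at least 1.5-fold higher and 430 (3.59%) lower in its Thy1-positive cells. Over the 7186 genes compared with TCRγδ Tcf7WT, 57.6% had ratios of the same sign, with a Spearman correlation of 0.25. Of the genes named as higher, 13 had enough UMIs, 12 of these were higher and 6 past 1.5-fold. Ms4a4b had 365 CPM in Thy1-positive and 174 CPM in Thy1-negative TCRβ cells (1.07), and Lgals1 had 102 and 36.6 CPM (1.49). All 14 lower genes were lower, 8 of them past 1.5-fold, with Tyrobp at 568 and 1038 CPM (-0.87) and Klra5 at 175 and 355 CPM (-1.02). The class II genes did not move as one there. H2-Aa had 8.41 CPM in Thy1-positive and 4.46 CPM in Thy1-negative TCRβ cells (0.92, 0.37 to 1.48), Cd74 had 10.3 and 6.58 CPM (0.65, 0.18 to 1.13) and H2-Ab1 had 11.6 and 10.1 CPM (0.20, -0.21 to 0.60). H2-Eb1 had 8.63 CPM in Thy1-positive and 12.4 CPM in Thy1-negative TCRβ cells (-0.52, where TCRγδ Tcf7WT had 1.46), and Gzma had a ratio of -1.42 there, against 0.37 in TCRγδ Tcf7WT and -0.25 in TCRγδ Tcf7KO. Whether these ratios differ between libraries was not tested.

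**Figure D5:**
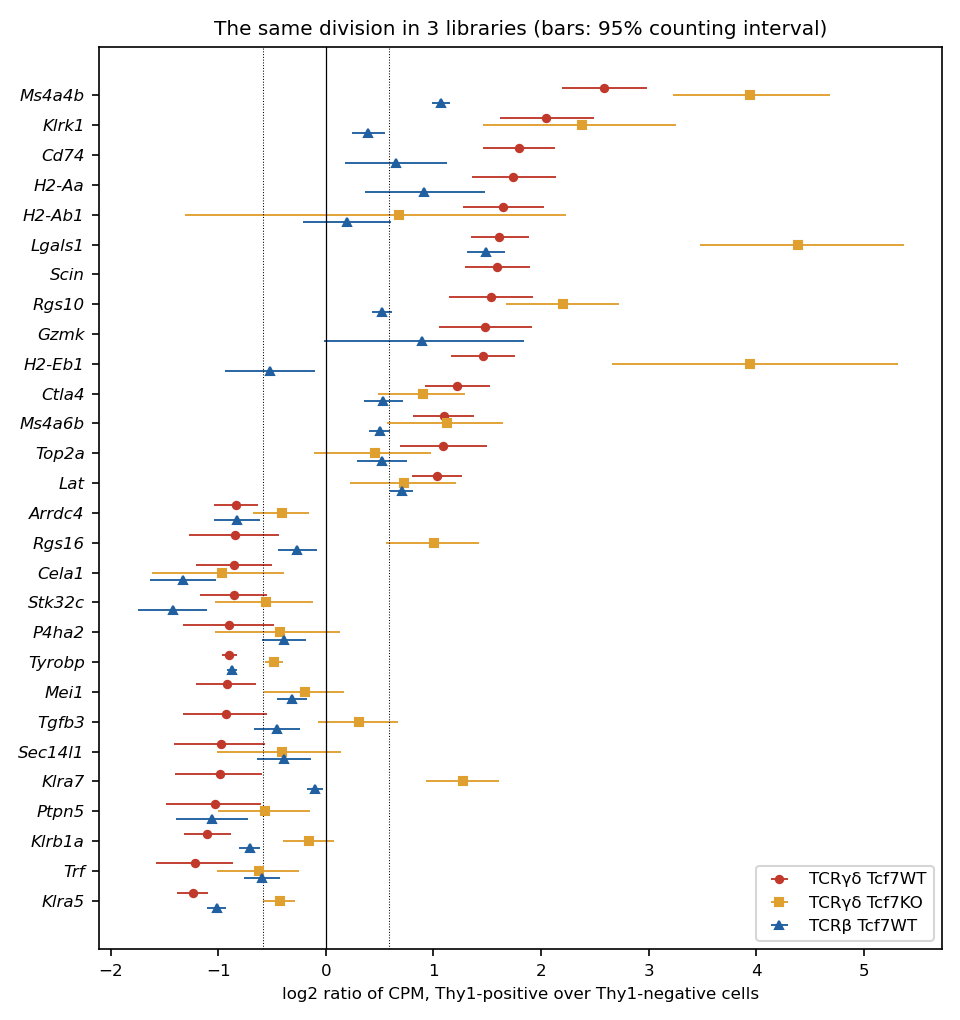
Log2 ratio of CPM, Thy1-positive over Thy1-negative cells, of the 28 named genes in the TCRγδ Tcf7WT (red circles), TCRγδ Tcf7KO (yellow squares) and TCRβ Tcf7WT libraries (blue triangles), with 95% counting intervals; dotted lines mark 1.5-fold and genes with fewer than 20 UMIs in a library have no point there. Tyrobp, Klra5 and Cela1 lie left of 0 and Ms4a4b, Lgals1 and Lat right of 0 in all 3 libraries, while Klra7 and Rgs16 lie right of 0 in TCRγδ Tcf7KO.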

How the data were processed

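The authors deposited 1 matrix of raw UMI counts per gene and cell for each library. Per the submitters' processing notes, Seurat 3.0.0 was among the tools used; the aligner and cell filters are not given in the sources used here. UMI counts were summed over the cells of each set and divided by its total to give CPM. Ratios have exact conditional intervals, CPM exact Poisson intervals and shares exact Clopper-Pearson intervals, at 95%. Both sets come from 1 library, so no test was run. Genes had to have 20 UMIs over both sets. Named were the 14 highest and 14 lowest ratios with at least 100 UMIs and 50 CPM in the higher set that stayed 1.5-fold apart after thinning and without epithelial marker cells (receptor segments, mitochondrial, ribosomal, sex and unnamed genes left out), and up to 6 members with at least 30 UMIs of each of 32 lists. The members and the lists were chosen with earlier results of these data known. Thinning drew 1442 UMIs per cell, the 10th percentile of Trdc-positive cells, without replacement, and left out 38 Thy1-positive and 141 Thy1-negative cells. Scrublet (scanpy 1.11.5) marked 3 of 1888 cells (0.159%), too few for the caller to have worked, and doublets were kept. Of the Trdc-positive barcodes, 3, 7 and 1 also occur in the TCRβ Tcf7KO, TCRβ Tcf7WT and TCRγδ Tcf7KO libraries. A gene not listed in a library has no value there. Coordinates are from GENCODE M21 (GRCm38), and promoters from RefSeq (GRCm38.p6). TMM (edgeR 4.0.16) and DESeq2 size factors, other depths and other sets of cells were the alternatives. The calculation was tested on simulated data.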

Additional observations from a re-analysis of the deposited data

Results flagged for a closer look

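For 7 genes the division had opposite directions in 2 libraries, with ratios past 1.5-fold and intervals clear of 0 in both. All 7 are among the 170 genes taken up singly, and no share over all genes is given beside them. None of these differences between libraries was tested. In TCRγδ Tcf7KO, log2 ratios of Thy1-positive over Thy1-negative cells were 1.27 for Klra7, 1.0 for Rgs16, 0.87 for Id3, 0.59 for Kit and 1.06 for Tcf7, where TCRγδ Tcf7WT had -0.99, -0.84, -0.78, -0.73 and -0.69. Tcf7 had 19 UMIs and 28.6 CPM in Thy1-positive and 84 UMIs and 13.7 CPM in Thy1-negative cells of the Tcf7KO library. S100a6 had a ratio of -1.54 in TCRγδ Tcf7KO, with 49.7 CPM in Thy1-positive and 144 CPM in Thy1-negative cells, and 0.86 in TCRγδ Tcf7WT. Over every cell of TCRγδ Tcf7WT its ratio was -1.57. That setting adds 93 cells without a Trdc UMI, 17 of them epithelial marker cells. Epithelial marker genes summed to 203 and 1085 CPM in Thy1-positive and Thy1-negative TCRγδ Tcf7KO cells. Their part in the S100a6 ratios was not tested. Tgfbr3 had -0.73 in TCRβ Tcf7WT and 0.59 (0.024 to 1.15) in TCRγδ Tcf7WT, where it stood at 0.27 after thinning.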

How the results depend on the processing

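Under 16 alternative settings for the single genes, all 14 lower genes and 13 of the 14 higher genes kept their direction. Klrk1 had a ratio of -0.39 without the cells with αβ-chain UMIs. Several of these settings could not, or could hardly, change a direction. Thinning to 1442 UMIs and leaving out epithelial marker cells were conditions for naming a gene. TMM and DESeq2 size factors move all ratios by the same constant, and leaving out Scrublet doublets removed 3 cells. The count of genes at least 1.5-fold higher, 463, was 1337 with no UMI minimum and 96 at 100 or more UMIs. The count of lower genes, 616, was 1730 and 144 under these settings, and 927 when the sets were made again after thinning. The share of Trdc-positive cells with a Thy1 UMI, 35.5%, was 23.0% after thinning to 1442 UMIs and 16.8% after thinning to 1000. Mki67 had -0.24 after thinning, -1.17 with the sets made again, -0.75 at 1000 UMIs, -2.74 in cells below the median depth, a setting added after seeing the data, -0.39 without αβ-chain cells, -0.17 without cycling cells and -0.0047 with each cell weighing the same. S100a6 had -1.57 over every cell of the library and -0.42 without αβ-chain cells. Without αβ-chain cells Trdv1 had 0.61, Cd8b1 -0.13 and H2-DMb1 -0.98, and with the sets made again Tgfbr3 had -0.031. The causes were not tested. Below 1.5-fold were Ifng (0.40), Icos (0.47) and Cish (0.57) after thinning, Cd74, Klrb1a, Ptpn5, Mei1 and Arrdc4 without αβ-chain cells, Trf, Klra7 and P4ha2 with the sets made again, and Tyrobp, Cela1 and Arrdc4 in cells with exactly 1 Thy1 UMI. No paired analysis was possible because both sets come from 1 library. Irf4, Icos and Sh2d1a, with 27, 31 and 29 UMIs in Thy1-positive cells, are among the least deeply sampled genes named.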
